A study of Homo sapiens with 9 samples.

Results

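The genes described here are 49 genes of cell division: the kinases that drive mitosis, the kinetochore that ties chromosomes to the spindle, and the checkpoint that delays chromosome separation until every chromosome is attached. They were chosen by name, with earlier results of these data known, so the counts below describe a selected list. Every probe set annotated to exactly 1 gene was taken where that gene was on the list. This gave 103 probe sets for 49 genes among 54613 probe sets and 19775 genes on the array. RNA came from PANC-1, a human pancreatic adenocarcinoma line, and was hybridised to 9 arrays of the Affymetrix HG-U133 Plus 2.0 type. The cells had been exposed for 72 hours to vehicle (DMSO), to 0.1 µM or to 1.0 µM TVB-3166, an inhibitor of fatty acid synthase, with 3 arrays in each group. All 3 groups were treated in a medium with 1% charcoal filtered serum after seeding in 10% serum. The labels describe triplicate treatments of 1 cell line and do not say that they were separate cultures, so each p-value measures the spread between these arrays, which may be technical. Doses were read from the sample titles, since another label field gives 0.1 µM for the 3 samples whose title says 1.0 µM.

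Entry into mitosis is driven by CDK1 bound to a B-type cyclin, with Polo and Aurora kinases building the spindle and the chromosomal passenger complex correcting faulty attachments. An unattached kinetochore activates the spindle assembly checkpoint, which holds back CDC20 and the anaphase-promoting complex; once the checkpoint is silenced, separase cuts cohesin and the sister chromatids part. Most of these genes are transcribed in a wave in G2 and M phase, so their messenger RNA is widely used as a mark of dividing cells.

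Mitotic genes were lower in treated cells at both doses. At 1.0 µM, 45 of the 49 genes fell against DMSO, none rose and 4 were not called. Calls rest on limma's moderated test, with the threshold of 0.05 set on p-values adjusted by Benjamini-Hochberg over all 13948 genes tested. In the same comparison 11.0% of all genes tested were called lower and 12.3% higher. The median log2 change of the 49 genes was -1.11, which is 2.16-fold lower, against a median of 0.01 over all genes tested. In 27 of them the level was at least 2-fold lower, as it was in 1.84% of all genes, each with a call. At 0.1 µM, 40 genes fell, none rose and 9 were not called, against 5.11% of all genes called lower and 6.89% higher, and the median log2 change was -0.92. At this dose 18 genes were at least 2-fold lower, against 0.624% of all genes. Changes are differences of log2(signal + 16), where the signal is the deposited brightness of a probe set, and the error after each ± is limma's standard error with 3 arrays per group. Adding 16 makes the fold change of dim genes smaller than the ratio of their signals. Because each array measures RNA from a whole culture, fewer dividing cells and less of these messages per cell cannot be told apart.

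The fall was present in each of the 6 treated arrays. The median of the 49 genes, relative to the mean of the DMSO arrays, was 0.10, -0.03 and -0.07 in the DMSO arrays, -0.97, -0.82 and -0.97 in the 0.1 µM arrays and -0.95, -1.14 and -1.15 in the 1.0 µM arrays. On this scale the DMSO arrays lay apart from all 6 treated arrays, while the 2 doses overlapped. Taken gene by gene, all 1.0 µM arrays lay below all DMSO arrays in 47 of the 49 genes, a pattern seen in 18.0% of all genes tested. At 0.1 µM the same held for 42 genes, against 14.6% of all genes. Among the 13948 genes ordered from the deepest fall, 14 of the 49 stood in the first 100 places at 1.0 µM and 37 in the first 500, and at 0.1 µM the numbers were 18 and 39. Both comparisons use the same 3 DMSO arrays, so they are not independent of each other.

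**Figure D1:**
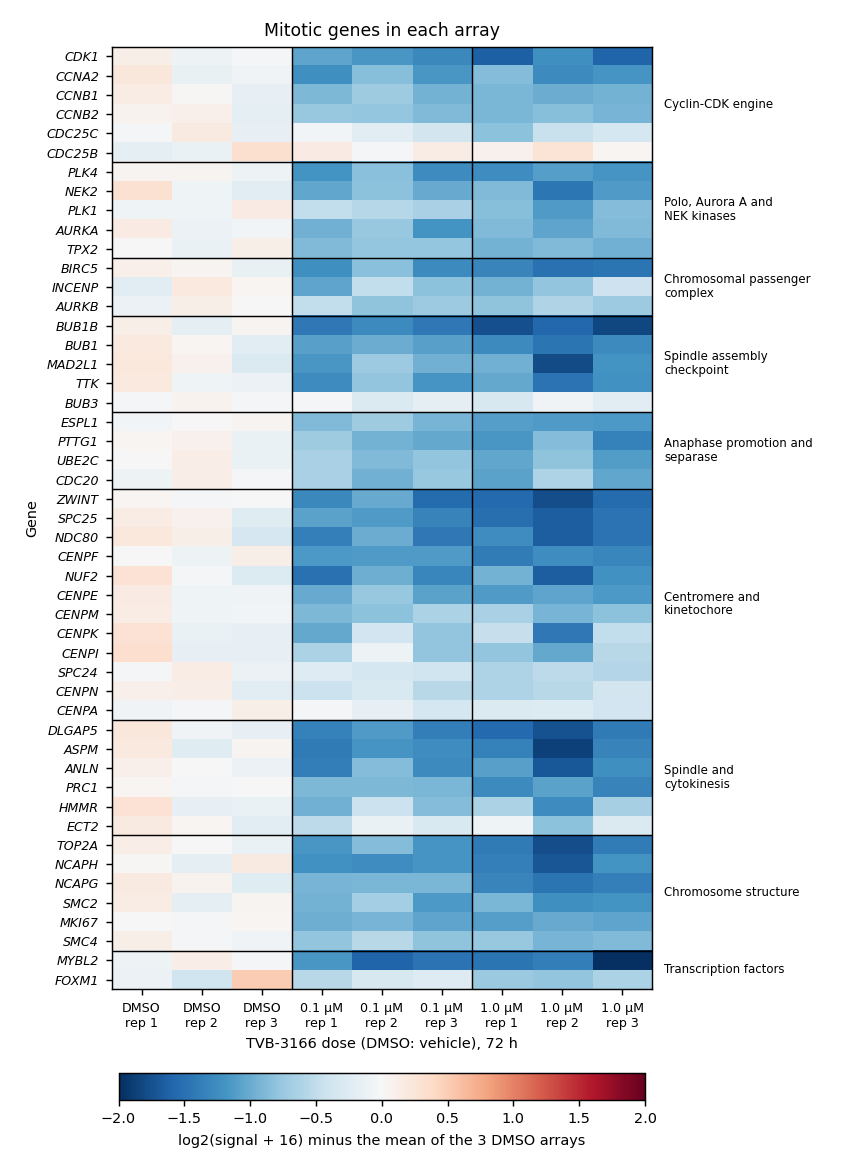
Level of each of the 49 mitotic genes (rows, grouped by role) in each of the 9 arrays (columns, DMSO then 0.1 and 1.0 µM TVB-3166), as log2(signal + 16) minus the mean of the 3 DMSO arrays. Nearly all rows are blue in the 6 treated arrays; the changes nearest 0 at 1.0 µM were those of CDC25B (0.13) and BUB3 (-0.20).

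The signals of the arrays had been scaled to 1 target, with a trimmed mean of 499.9 on the lowest and the highest array and medians between 66.7 and 79.1. The hybridisation spikes, which are control transcripts added before hybridisation, were brighter on 4 arrays (DMSO replicate 2, 0.1 µM replicates 1 and 3 and 1.0 µM replicate 2) than on the other 5, with mean log2 levels from 11.21 to 12.12 over the 9 arrays, and each dose had arrays in both sets. The log2 ratio of the 3′ to the 5′ probe set of GAPDH, a sign of RNA integrity, averaged -0.14 ± 0.05 in DMSO, -0.11 ± 0.01 at 0.1 µM and -0.18 ± 0.05 at 1.0 µM (SD, n = 3 each). Within the brighter set the median change of the 49 genes was -1.06 at 1.0 µM (1 array against 1) and -0.95 at 0.1 µM (2 against 1), and within the dimmer set it was -1.08 (2 against 2) and -0.82 (1 against 2). The number called at 1.0 µM ran from 40 to 47 over 24 other ways of processing the data, among them 9 that each leave out 1 array. At 0.1 µM it ran from 36 to 41 over the same alternatives except in the fit to the 5 arrays of the dimmer spike set, which holds only 1 array at 0.1 µM and called 19. PANC-1 is known as an epithelial line with mesenchymal traits, and the keratin KRT18 and the mesenchymal gene VIM were bright in all groups, with DMSO means of 21980 and 19390. KRT8 and KRT19 fell, with means of 10860 and 10950 at 1.0 µM, against 19990 and 20400 in DMSO, and KRT7 rose to 683, against 318 in DMSO; their part in the results was not tested. The summed signal of the 5 line markers ran from 49802 to 75279 at 1.0 µM, against 66977 to 94822 in DMSO. Markers of other tissues were checked as well. The summed signal of the 4 prostate genes with a probe set, a list kept because the series also names a prostate line, ran from 944 to 1029 at 1.0 µM, against 1674 to 1808 in DMSO, and 1 of the 3 tested was called, TMPRSS2, which was lower at both doses with means of 437 at 1.0 µM and 1171 in DMSO. The prostate antigen KLK3 was not called, with means of 472 at 1.0 µM and 471 in DMSO. The sum of 5 fibroblast genes ran from 242 to 305 at 1.0 µM, against 425 to 526 in DMSO. Of the 2 tested, 1 was called, the collagen gene COL3A1, lower at both doses with means of 100.3 at 1.0 µM and 313 in DMSO. The other, DCN, was not called and its mean went the other way, with 124.8 at 1.0 µM and 96.7 in DMSO. LUM, PDGFRB and POSTN were below the filter. Both sums thus moved in the direction of the 49 genes, and their part in the results was not tested. Summed over 7 blood and immune genes, signals ran from 447 to 526 at 1.0 µM, against 349 to 574 in DMSO, with none called, and the pan-leukocyte gene PTPRC was below the filter. None of the endothelial genes or of the acinar and endocrine pancreas genes was called either, with 1 of each list above the filter.

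The promoters of the 49 genes were searched for the pair of elements that mark many G2/M genes. The cell cycle genes homology region, or CHR, is bound by the DREAM and MuvB complexes, and the CCAAT box is bound by NF-Y. RefSeq promoter windows on GRCh38.p14, running from 250 bases before to 50 bases after an annotated start, were matched for 41 of the 49 genes, giving 56 windows, since some genes have several annotated starts. No window was matched for TTK, BIRC5, AURKA, FOXM1, UBE2C, BUB3, TPX2 or CENPM. A CHR core, TTTGAA or TTCGAA on either strand, stood in 60.7% of these windows and in 16.4% of all 35116 windows. A CCAAT box on either strand stood in 66.1% of them and in 34.6% of all windows. Both stood in 44.6% of them and in 6.38% of all windows. In the windows of genes called lower at 1.0 µM (49 windows), both stood in 44.9%. The genes were chosen as genes of cell division, so these shares describe the list and not its fall. Matches of the 2 motifs can share a letter, which happened in 1 of the 56 windows. A match of so few letters is a description of the sequence and not a shown binding site.

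The 5 windows below are examples, 3 from genes that fell and carry both motifs and 1 from a gene that fell and carries neither. The last is from a gene that was not called and carries both, as do windows of CDC25B and CENPA, also not called. CCNB2 encodes cyclin B2, and its window (chr15:59104896-59105195, plus strand) holds 4 CCAAT boxes and a CHR core whose first base is at position -29 from the start. TOP2A encodes the topoisomerase that untangles sister chromatids, and its window (chr17:40417847-40418146, minus strand) holds 4 CCAAT boxes, all inverted as ATTGG, and 2 CHR cores. PRC1 encodes the protein that bundles microtubules in the spindle midzone, and its window (chr15:90994486-90994785, minus strand) holds 1 of each, the CHR core at position -20. MYBL2 encodes B-MYB, which joins MuvB to switch on G2/M genes, and its window (chr20:43666864-43667163, plus strand) holds neither, as do the windows of CENPE and CENPI. ECT2 encodes the exchange factor that starts the cleavage furrow, and its first window (chr3:172750476-172750775, plus strand) holds 3 CCAAT boxes and 2 CHR cores. Sequences run 5′ to 3′ on the strand of the gene, and capitals mark the CHR cores and CCAAT boxes on either strand.
CCNB2: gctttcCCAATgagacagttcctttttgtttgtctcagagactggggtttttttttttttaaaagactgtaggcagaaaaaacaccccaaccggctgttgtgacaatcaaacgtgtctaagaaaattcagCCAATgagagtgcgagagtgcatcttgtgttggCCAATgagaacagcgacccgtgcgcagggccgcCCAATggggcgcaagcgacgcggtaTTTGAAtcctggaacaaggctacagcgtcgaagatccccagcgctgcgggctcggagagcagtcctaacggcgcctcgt
TOP2A: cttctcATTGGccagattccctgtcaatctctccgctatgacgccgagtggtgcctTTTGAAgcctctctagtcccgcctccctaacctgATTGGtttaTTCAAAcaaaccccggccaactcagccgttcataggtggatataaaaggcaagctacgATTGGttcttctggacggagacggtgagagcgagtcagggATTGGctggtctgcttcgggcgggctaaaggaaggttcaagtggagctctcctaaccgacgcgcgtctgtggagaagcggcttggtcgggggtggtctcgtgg
PRC1: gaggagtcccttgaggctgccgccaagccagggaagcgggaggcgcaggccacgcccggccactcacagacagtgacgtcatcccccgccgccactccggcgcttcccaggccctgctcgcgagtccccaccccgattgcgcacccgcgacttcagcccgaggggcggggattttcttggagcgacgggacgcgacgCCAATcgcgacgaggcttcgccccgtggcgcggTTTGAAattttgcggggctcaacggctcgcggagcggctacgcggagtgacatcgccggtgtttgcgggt
MYBL2: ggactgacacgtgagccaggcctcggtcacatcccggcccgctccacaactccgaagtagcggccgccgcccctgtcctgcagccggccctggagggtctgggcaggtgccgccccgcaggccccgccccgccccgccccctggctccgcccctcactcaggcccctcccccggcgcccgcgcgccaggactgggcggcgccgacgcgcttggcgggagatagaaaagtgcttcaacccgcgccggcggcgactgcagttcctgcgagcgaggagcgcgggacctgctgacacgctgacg
ECT2: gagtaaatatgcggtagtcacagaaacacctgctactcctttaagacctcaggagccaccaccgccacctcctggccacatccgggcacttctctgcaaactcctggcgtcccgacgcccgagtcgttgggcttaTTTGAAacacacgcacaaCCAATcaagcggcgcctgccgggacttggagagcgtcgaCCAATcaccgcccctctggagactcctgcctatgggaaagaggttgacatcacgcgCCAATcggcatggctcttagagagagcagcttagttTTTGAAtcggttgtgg

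The cyclin-CDK engine fell in 5 of its 6 genes at 1.0 µM and in 4 at 0.1 µM, with median log2 changes of -0.92 and -0.83. Beside this and each later role group, the shares of all genes called lower were 11.0% at 1.0 µM and 5.11% at 0.1 µM. CDK1 (chromosome 10, 60778331 to 60794852 on GRCh38.p14), the kinase at its centre, had signals of 2894, 2480.1 and 2628 under DMSO, 1279, 1179 and 1076 at 0.1 µM and 844, 1134 and 871 at 1.0 µM. No treated array reached the lowest DMSO array. CDK1 fell, with log2 changes of -1.17 ± 0.12 at 0.1 µM (adjusted p 7.65e-05) and -1.48 ± 0.12 at 1.0 µM (adjusted p 5.46e-06). CCNB2, a partner cyclin of CDK1, had signals of 3111, 3194 and 2633 in the DMSO arrays, 1740.0, 1737 and 1609.8 in the 0.1 µM arrays and 1568, 1634 and 1556 in the 1.0 µM arrays. The DMSO arrays again lay above all others, and the doses overlapped. CCNB2 fell, with log2 changes of -0.80 ± 0.09 at 0.1 µM (adjusted p 1.72e-04) and -0.90 ± 0.09 at 1.0 µM (adjusted p 3.11e-05). The other partner cyclins fell as well: cyclin B1 (CCNB1) by log2 changes of -0.85 at 0.1 µM and -0.95 at 1.0 µM, and cyclin A2 (CCNA2), which also acts in S phase, by -1.08 and -1.11.

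Of the CDC25 phosphatases, which remove the inhibitory phosphates from CDK1, CDC25B was called at neither dose and CDC25C fell at 1.0 µM. CDC25B had signals of 2954, 3056 and 4183 under DMSO, 3747, 3270.4 and 3718 at 0.1 µM and 3566, 4044 and 3456 at 1.0 µM. All 3 groups overlapped, with the highest value in a DMSO array. Its log2 change at 1.0 µM was 0.13 with a 95% interval of -0.15 to 0.42 (adjusted p 0.532), and at 0.1 µM it was 0.09 with an interval of -0.20 to 0.38 (adjusted p 0.734). Both intervals lie above the median change of the 49 genes at that dose. CDC25C, which acts at the onset of mitosis, was dimmer, with signals of 408, 474 and 371 under DMSO, 399, 351 and 320.1 at 0.1 µM and 228, 302 and 322 at 1.0 µM. The 1.0 µM arrays lay below the DMSO arrays and the 0.1 µM arrays overlapped them. It fell at 1.0 µM (-0.54 ± 0.16, adjusted p 0.0277) and was not called at 0.1 µM (-0.22 ± 0.16, adjusted p 0.444). The call at 1.0 µM was lost without DMSO replicate 1 (adjusted p 0.0613), without DMSO replicate 2 (0.103) and without 1.0 µM replicate 1 (0.113). Another, dimmer probe set of CDC25C was not called at 1.0 µM in the fit to all probe sets (-0.47, adjusted p 0.107).

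All 5 genes of the Polo, Aurora A and NEK group fell at both doses, with a median log2 change of -0.95 at each. TPX2, the spindle protein that activates Aurora A, had signals of 4269, 3880.0 and 4621 under DMSO, 2287, 2484 and 2472 at 0.1 µM and 2194, 2286 and 2173 at 1.0 µM. All 1.0 µM arrays lay below all 0.1 µM arrays, which lay below all DMSO arrays. TPX2 fell, with log2 changes of -0.81 ± 0.09 at 0.1 µM (adjusted p 1.16e-04) and -0.93 ± 0.09 at 1.0 µM (adjusted p 1.67e-05). PLK4, the kinase that licenses centriole duplication, had signals of 701, 700.4 and 633 in the DMSO arrays, 288, 374 and 275 in the 0.1 µM arrays and 278, 306 and 289.9 in the 1.0 µM arrays. The treated groups overlapped each other and lay below DMSO. For PLK4 the log2 changes were -1.09 ± 0.13 at 0.1 µM (adjusted p 2.51e-04) and -1.18 ± 0.13 at 1.0 µM (adjusted p 6.22e-05). Aurora A itself (AURKA) had log2 changes of -0.97 at 0.1 µM and -0.94 at 1.0 µM, and the centrosome kinase NEK2 of -0.95 and -1.15. For PLK1, the Polo kinase of mitotic entry, spindle and cytokinesis, the changes were -0.57 ± 0.15 at 0.1 µM (adjusted p 0.0236) and -0.95 ± 0.15 at 1.0 µM (adjusted p 5.38e-04). The PLK1 call at 0.1 µM was lost when any 1 of 4 arrays was left out, with adjusted p of 0.0757 without DMSO replicate 3 and 0.051, 0.0534 and 0.101 without 0.1 µM replicates 1, 2 and 3.

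The chromosomal passenger complex fell in all 3 of its genes at both doses. BIRC5 encodes survivin, the subunit that docks the complex on the centromere, and had signals of 3215, 3095 and 2684 under DMSO, 1262, 1659 and 1232 at 0.1 µM and 1181, 1047 and 1078 at 1.0 µM. The 3 groups did not overlap and were lowest at 1.0 µM. BIRC5 fell, with log2 changes of -1.11 ± 0.12 at 0.1 µM (adjusted p 1.09e-04) and -1.43 ± 0.12 at 1.0 µM (adjusted p 7.23e-06). AURKB encodes the complex's kinase and had signals of 419, 495 and 459 in the DMSO arrays, 321, 255 and 271 in the 0.1 µM arrays and 253, 296 and 270.3 in the 1.0 µM arrays. Both doses lay below DMSO and overlapped each other. For AURKB the log2 changes were -0.67 ± 0.14 at 0.1 µM (adjusted p 0.00696) and -0.71 ± 0.14 at 1.0 µM (adjusted p 0.00247). INCENP, the scaffold of the complex, had log2 changes of -0.78 ± 0.21 at 0.1 µM (adjusted p 0.0283) and -0.72 ± 0.21 at 1.0 µM (adjusted p 0.0256). At 1.0 µM the INCENP call was lost without DMSO replicate 2 (adjusted p 0.0922), DMSO replicate 3 (0.0676), 1.0 µM replicate 1 (0.095) or 1.0 µM replicate 2 (0.0562). At 0.1 µM it was lost without DMSO replicate 2 (0.0982), DMSO replicate 3 (0.0754), 0.1 µM replicate 1 (0.111) or 0.1 µM replicate 3 (0.0977). Without the filter both calls were lost (adjusted p 0.0524 at 1.0 µM and 0.0591 at 0.1 µM).

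Of the 5 spindle assembly checkpoint genes, 4 fell at both doses, and the median log2 change of the group was -1.06 at 0.1 µM and -1.31 at 1.0 µM. BUB1B encodes BUBR1, a subunit of the complex that inhibits CDC20 (chromosome 15, 40161069 to 40221123), and had signals of 2721, 2204 and 2608 under DMSO, 919, 1027 and 914 at 0.1 µM and 725, 833 and 695 at 1.0 µM. Each dose lay below the one before it with no overlap. BUB1B fell, with log2 changes of -1.38 ± 0.11 at 0.1 µM (adjusted p 9.94e-06) and -1.72 ± 0.11 at 1.0 µM (adjusted p 9.18e-07), the deepest of the 49 genes at 1.0 µM. BUB1, the kinase that recruits checkpoint proteins to the kinetochore, had signals of 2071, 1859 and 1540.2 in the DMSO arrays, 845, 904 and 840.4 in the 0.1 µM arrays and 738, 651 and 742 in the 1.0 µM arrays. The same order held in BUB1, with no overlap between the groups. For BUB1 the log2 changes were -1.06 ± 0.12 at 0.1 µM (adjusted p 1.04e-04) and -1.33 ± 0.12 at 1.0 µM (adjusted p 7.71e-06). TTK, the kinase known as MPS1 that starts checkpoint signalling, had log2 changes of -1.08 at 0.1 µM and -1.24 at 1.0 µM, and MAD2L1, which encodes the checkpoint protein MAD2, of -0.95 and -1.31.

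BUB3, the adaptor that carries BUB1 and BUBR1 to the kinetochore, differed from its partners. Its signals were 8180.3, 8738 and 8075 under DMSO, 8089.6, 6831 and 7300.4 at 0.1 µM and 6686, 7903 and 7169 at 1.0 µM. The DMSO and 0.1 µM arrays overlapped, and the 1.0 µM arrays lay below all DMSO arrays by a narrow margin. Its log2 change at 1.0 µM was -0.20 with a 95% interval of -0.43 to 0.02 (adjusted p 0.19), and at 0.1 µM -0.17 with an interval of -0.40 to 0.05 (adjusted p 0.335). The interval at 1.0 µM lay wholly above those of the other 4 genes, of which the nearest was that of MAD2L1 at -1.74 to -0.88. The 4 bright probe sets of BUB3 gave log2 changes from -0.30 to -0.13 at 1.0 µM, none of them called. BUB3 was called lower after quantile normalization (adjusted p 0.0266 at 1.0 µM and 0.0404 at 0.1 µM) and with the spike set as a block (0.0328 and 0.0424), at similar sizes.

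**Figure D2:**
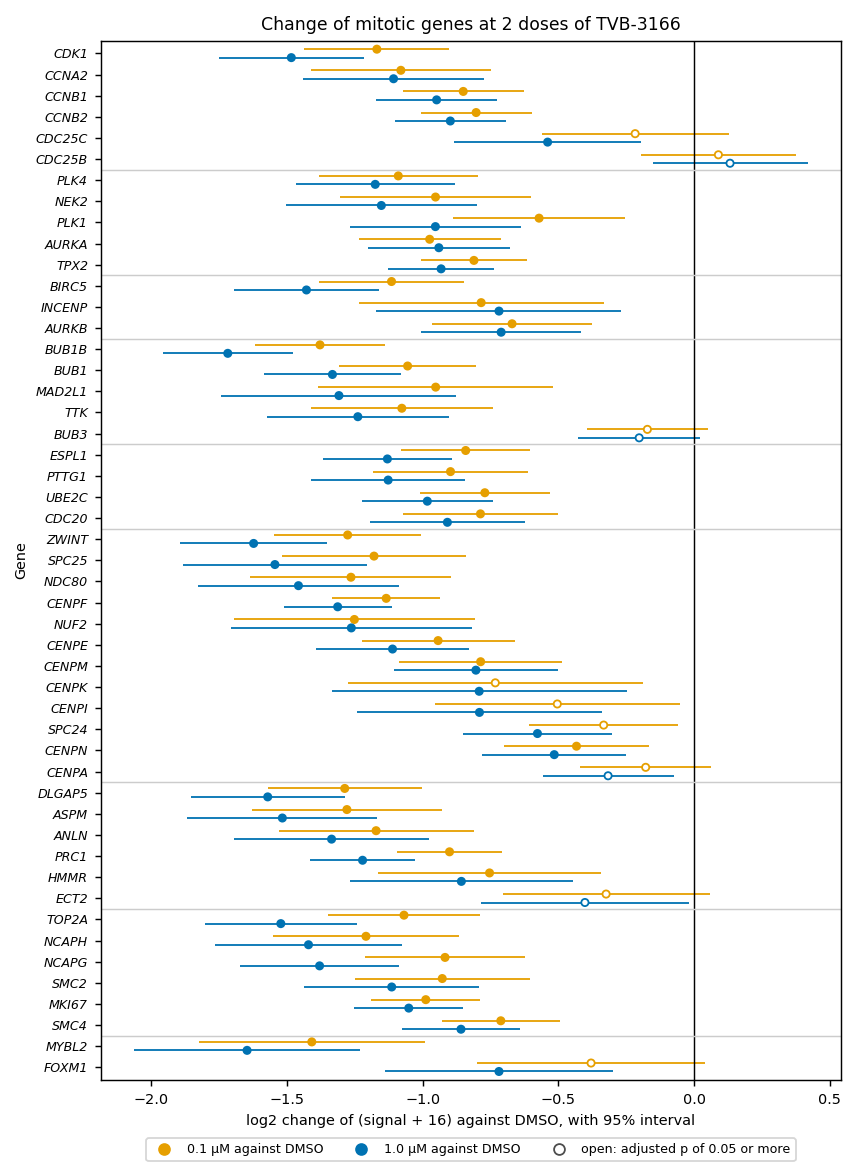
The log2 change of each mitotic gene against DMSO at 0.1 µM (orange) and 1.0 µM (blue), with 95% intervals from limma; filled points were called at an adjusted p under 0.05. The changes at 1.0 µM run from -1.72 for BUB1B to 0.13 for CDC25B, and most intervals at the 2 doses overlap.

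All 4 genes of anaphase promotion and separase fell at both doses. ESPL1 encodes separase, the protease that cuts cohesin, and had signals of 719.9, 747 and 777 under DMSO, 396, 453 and 384 at 0.1 µM and 338, 332 and 329 at 1.0 µM. The 3 groups did not overlap. ESPL1 fell, with log2 changes of -0.84 ± 0.11 at 0.1 µM (adjusted p 3.48e-04) and -1.13 ± 0.11 at 1.0 µM (adjusted p 1.68e-05). UBE2C encodes the ubiquitin-conjugating enzyme of the anaphase-promoting complex and had signals of 3481, 3864 and 3212 in the DMSO arrays, 2231, 1901 and 2030.1 in the 0.1 µM arrays and 1703, 2012 and 1610.4 in the 1.0 µM arrays. The DMSO arrays stood above all treated arrays. For UBE2C the log2 changes were -0.77 ± 0.11 at 0.1 µM (adjusted p 6.92e-04) and -0.98 ± 0.11 at 1.0 µM (adjusted p 5.46e-05). PTTG1 encodes securin, the inhibitor of separase, and had log2 changes of -0.90 at 0.1 µM and -1.13 at 1.0 µM. The messenger RNA of inhibitor and protease was thus lower, and the proteins were not measured. CDC20, the activator that the checkpoint restrains, had changes of -0.79 and -0.91.

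Of the 12 centromere and kinetochore genes, 11 fell at 1.0 µM and 8 at 0.1 µM, with median log2 changes of -0.96 and -0.86. CENPF, a large protein of the outer kinetochore and nuclear envelope, had signals of 2096, 1967 and 2279 under DMSO, 944, 958 and 956 at 0.1 µM and 790.0, 886 and 845 at 1.0 µM. Each group lay clear of the others. CENPF fell, with log2 changes of -1.13 ± 0.09 at 0.1 µM (adjusted p 1.01e-05) and -1.31 ± 0.09 at 1.0 µM (adjusted p 1.56e-06). ZWINT, which links the kinetochore to the checkpoint's RZZ complex, had signals of 5922, 5613 and 5745 in the DMSO arrays, 2351, 2861 and 1973 in the 0.1 µM arrays and 1945, 1681 and 1963 in the 1.0 µM arrays. It too was lowest at 1.0 µM with no overlap. For ZWINT the log2 changes were -1.28 ± 0.12 at 0.1 µM (adjusted p 4.47e-05) and -1.62 ± 0.12 at 1.0 µM (adjusted p 3.28e-06). CENPE, the kinetochore motor that brings chromosomes to the metaphase plate, had changes of -0.94 at 0.1 µM and -1.11 at 1.0 µM, and CENPM, of the inner kinetochore, of -0.79 and -0.80.

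The NDC80 complex, which grips microtubules, is made of NDC80, NUF2, SPC24 and SPC25. At 1.0 µM the log2 changes were -1.46 ± 0.17 for NDC80, -1.26 ± 0.20 for NUF2 and -1.54 ± 0.16 for SPC25, all called. SPC24 had signals of 378, 431 and 356 under DMSO, 322, 301 and 290.2 at 0.1 µM and 247, 264 and 252 at 1.0 µM. The 3 groups kept their order without overlap, but the steps were small. SPC24 fell at 1.0 µM (-0.58 ± 0.13, adjusted p 0.00592) and was not called at 0.1 µM (-0.33 ± 0.13, adjusted p 0.117), where the changes of NDC80, NUF2 and SPC25 were -1.26, -1.25 and -1.18. The difference between SPC24 and its partners was not tested.

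CENPI and CENPK, of the inner kinetochore, had standard errors above those of the other 10 genes of this group. CENPI had signals of 539.6, 376 and 379 under DMSO, 269.8, 396 and 240.0 at 0.1 µM and 239.8, 200.1 and 284 at 1.0 µM. The 1.0 µM arrays lay below DMSO, and 0.1 µM replicate 2 overlapped it. CENPI fell at 1.0 µM (-0.79 ± 0.21, adjusted p 0.0161) and was not called at 0.1 µM (-0.50 ± 0.21, adjusted p 0.148). Without DMSO replicate 1 the call at 1.0 µM was lost (adjusted p 0.0692), and without 0.1 µM replicate 2 the gene was called at 0.1 µM (0.044). In the fit to all probe sets, another, dimmer probe set of CENPI was called lower at 1.0 µM (-1.03, adjusted p 0.01). At 0.1 µM it was not called (-0.80, adjusted p 0.0576). CENPK had signals of 1061, 787 and 774 in the DMSO arrays, 415, 663 and 492 in the 0.1 µM arrays and 627, 311 and 610.4 in the 1.0 µM arrays. Its treated arrays all lay below the DMSO arrays, with 1.0 µM replicate 2 far below the other 2 of its group. CENPK fell at 1.0 µM (-0.79 ± 0.25, adjusted p 0.038) and was not called at 0.1 µM (-0.73 ± 0.25, adjusted p 0.0818). The call at 1.0 µM was lost without DMSO replicate 1 (0.131), 2 (0.0634) or 3 (0.0619), without 0.1 µM replicate 3 (0.0548) and without 1.0 µM replicate 2 (0.0939), and with all 9 arrays without the filter (0.063) or without the trend (0.0802). At 0.1 µM CENPK was called with only the 6 arrays compared (0.023), without 0.1 µM replicate 2 (0.0467) and without 1.0 µM replicate 2 (0.0134).

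CENPA, the histone H3 variant that marks the centromere, was not called at either dose. It had signals of 727, 749.9 and 831 under DMSO, 755, 683 and 601 at 0.1 µM and 623, 629.8 and 588 at 1.0 µM. The 1.0 µM arrays lay just below the DMSO arrays and the 0.1 µM arrays overlapped them. Its log2 change at 1.0 µM was -0.32 with a 95% interval of -0.56 to -0.08 (adjusted p 0.058), and at 0.1 µM -0.18 with an interval of -0.42 to 0.06 (adjusted p 0.357). It was called at 1.0 µM with the mean of probe sets for each gene (adjusted p 0.0393) and with the spike set as a block (0.0435). CENPN, which reads the CENPA nucleosome, had log2 changes of -0.43 ± 0.12 at 0.1 µM (adjusted p 0.0385) and -0.52 ± 0.12 at 1.0 µM (adjusted p 0.00942). Its call at 0.1 µM was lost without DMSO replicate 1 (adjusted p 0.127), without DMSO replicate 2 (0.127), and without 0.1 µM replicate 1 (0.101) or 3 (0.165). With all 9 arrays it was also lost with median centring (0.075), without the filter (0.0532), without the trend (0.0746) and after quantile normalization (0.0503). In the fit to all probe sets, the probe set that stands for CENPN was not called at 0.1 µM (adjusted p 0.0507). There, 2 dimmer ones were called lower at 0.1 µM, with log2 changes of -0.80 (adjusted p 0.00231) and -0.57 (adjusted p 0.0215).

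Among the spindle and cytokinesis genes, 5 of 6 fell at both doses, with median log2 changes of -1.04 at 0.1 µM and -1.28 at 1.0 µM. PRC1, whose promoter window is shown above, had signals of 5003, 4759 and 4827 under DMSO, 2589.5, 2613 and 2585 at 0.1 µM and 2008, 2311 and 1927 at 1.0 µM. The arrays within each group were close together and the 3 groups did not overlap. PRC1 fell, with log2 changes of -0.90 ± 0.09 at 0.1 µM (adjusted p 4.85e-05) and -1.22 ± 0.09 at 1.0 µM (adjusted p 2.25e-06). DLGAP5, a spindle protein also called HURP, had signals of 1829, 1491 and 1401 in the DMSO arrays, 603, 706 and 589.6 in the 0.1 µM arrays and 524, 455 and 574 in the 1.0 µM arrays. Again each dose lay below the one before it. For DLGAP5 the log2 changes were -1.29 ± 0.13 at 0.1 µM (adjusted p 6.02e-05) and -1.57 ± 0.13 at 1.0 µM (adjusted p 5.59e-06). ASPM, which focuses the spindle poles, had changes of -1.28 at 0.1 µM and -1.52 at 1.0 µM, and anillin (ANLN), a scaffold of the cleavage furrow, of -1.17 and -1.34. With probe sets ending in _at taken first, ASPM was represented by a dim probe set and was not called, with log2 changes of -0.59 at 0.1 µM (adjusted p 0.147) and -0.47 at 1.0 µM (adjusted p 0.198). HMMR, a spindle-associated hyaluronan receptor, had changes of -0.75 ± 0.19 at 0.1 µM (adjusted p 0.0221) and -0.86 ± 0.19 at 1.0 µM (adjusted p 0.00615). The HMMR call at 0.1 µM was lost without DMSO replicate 1 (adjusted p 0.0901) and without 0.1 µM replicate 1 (0.0897) or 3 (0.0996), and with all 9 arrays in the fit without the trend (0.0632). Another, dimmer probe set of HMMR was called lower at 0.1 µM in the fit to all probe sets (-0.64, adjusted p 0.00519).

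ECT2, whose promoter window holds both motifs, was the gene of this group that was not called. It had signals of 3007, 2714 and 2286 under DMSO, 1838, 2408 and 2139 at 0.1 µM and 2504, 1488 and 2156 at 1.0 µM. Both treated groups overlapped the DMSO arrays, and 1.0 µM replicate 2 lay well below the other 2 arrays at that dose. Its log2 change was -0.32 at 0.1 µM (95% interval -0.71 to 0.06, adjusted p 0.281) and -0.40 at 1.0 µM (-0.78 to -0.02, adjusted p 0.123). Without 1.0 µM replicate 1 it was called at that dose (adjusted p 0.0449). Another, dimmer probe set of ECT2 was called lower at 1.0 µM in the fit to all probe sets, with a log2 change of -0.62 and an adjusted p of 0.00656.

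The 6 chromosome structure genes all fell at both doses, with median log2 changes of -0.96 at 0.1 µM and -1.25 at 1.0 µM. TOP2A (chromosome 17, 40388525 to 40417896 on GRCh38.p14) had signals of 2910.3, 2622 and 2414 under DMSO, 1176, 1439 and 1155 at 0.1 µM and 986, 765 and 994 at 1.0 µM. The 3 groups were ordered by dose without overlap. TOP2A fell, with log2 changes of -1.07 ± 0.13 at 0.1 µM (adjusted p 2.09e-04) and -1.52 ± 0.13 at 1.0 µM (adjusted p 6.03e-06). MKI67 encodes Ki-67, which coats mitotic chromosomes and is the usual stain for dividing cells, and had signals of 1206, 1169 and 1245 in the DMSO arrays, 606, 625 and 569.7 in the 0.1 µM arrays and 557, 591 and 574 in the 1.0 µM arrays. The treated groups overlapped each other and lay below DMSO. For MKI67 the log2 changes were -0.99 ± 0.09 at 0.1 µM (adjusted p 3.30e-05) and -1.05 ± 0.09 at 1.0 µM (adjusted p 8.63e-06). The condensin core, which compacts chromosomes, fell together: at 1.0 µM the log2 changes were -1.11 for SMC2, -0.86 for SMC4, -1.38 for NCAPG and -1.42 for NCAPH. At 0.1 µM they were -0.93, -0.71, -0.92 and -1.21 in the same order, and the SMC2 call at 0.1 µM was lost with probe sets ending in _at taken first (adjusted p 0.0687).

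Both transcription factors of the list fell at 1.0 µM and 1 of them at 0.1 µM. MYBL2 had signals of 739, 869 and 775 under DMSO, 345, 252 and 276 at 0.1 µM and 279, 295 and 172 at 1.0 µM. Its treated arrays lay far below the DMSO arrays, with 1.0 µM replicate 3 the lowest. For MYBL2 the log2 changes were -1.41 ± 0.19 at 0.1 µM (adjusted p 4.63e-04) and -1.65 ± 0.19 at 1.0 µM (adjusted p 6.72e-05). FOXM1, the forkhead factor that works with B-MYB and MuvB on G2/M promoters, had signals of 562, 459 and 877 in the DMSO arrays, 412, 484 and 505 in the 0.1 µM arrays and 359.9, 347 and 387 in the 1.0 µM arrays. DMSO replicate 2 overlapped the 0.1 µM arrays, DMSO replicate 3 was the highest array, and the 1.0 µM arrays lay below both other groups. FOXM1 fell at 1.0 µM (-0.72 ± 0.19, adjusted p 0.0179) and was not called at 0.1 µM (-0.38 ± 0.19, adjusted p 0.25).

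**Figure D3:**
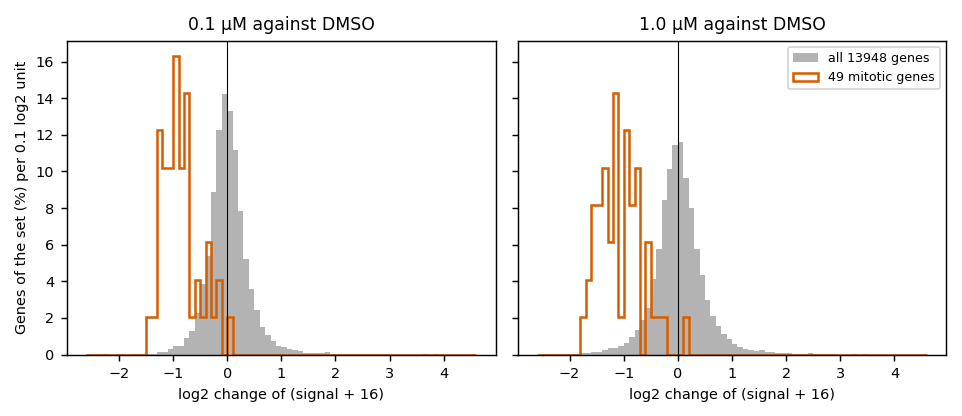
Distribution of log2 changes against DMSO at 0.1 µM (left) and 1.0 µM (right) for the 49 mitotic genes (orange line) and for all 13948 genes tested (grey), as percent of each set per 0.1 log2 unit. The medians of the 49 genes are -0.92 and -1.11, and those of all genes are -0.01 and 0.01.

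The second question of the design is whether 1.0 µM differed from 0.1 µM. None of the 49 genes was called between the doses by limma, against 0.817% of all genes called in either direction and 0.430% called lower. At an unadjusted p under 0.05, 11 of the 49 genes were lower at 1.0 µM, against 6.20% of all genes. In 46 of the 49 the level was lower at 1.0 µM without regard to a test, as in 49.1% of all genes, and the median log2 difference was -0.19. In 15 genes all 1.0 µM arrays lay below all 0.1 µM arrays, a pattern found in 8.73% of all genes. PRC1 had the smallest p, with a log2 difference of -0.32 ± 0.09 and an adjusted p of 0.139. NCAPG had the deepest difference, -0.46 ± 0.13, and TOP2A followed at -0.45 ± 0.13. The 95% intervals of the 49 differences together spanned -0.79 to 0.52, so the arrays leave room for differences between the doses in single genes. TOP2A was called with the spike set as a block (log2 difference -0.53, adjusted p 0.0286) and PRC1 without 1.0 µM replicate 2 (-0.40, adjusted p 0.0452); under the other 22 alternatives none was called.

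Genes with several probe sets gave a check within the same arrays. Of the 103 probe sets, 90 were above the filter on low signal, and 73 of these were called lower at 1.0 µM, none higher, against 8.68% of all probe sets called lower and 8.94% higher. At 0.1 µM, 63 were lower and none higher, against 3.66% and 4.59%, and between the doses none was called, against 0.159% called lower. Of the 49 genes, 27 had more than 1 probe set, though AURKB and SPC24 had only 1 of theirs above the filter. Since no probe set of the 49 genes was called higher, none of them could have calls in opposite directions. The 17 probe sets not called at 1.0 µM fell into a dim and a bright kind. Below a mean log2 level of 7, a bound chosen after the values were seen, 1 of 9 was called, while at or above it 72 of 81 were. AURKA is an example: its 2 bright probe sets had log2 changes of -0.94 and -1.08, and its dim probe set 0.02. The bright probe sets that were not called included all 4 of BUB3 and the single probe set of CDC25B. They also included a probe set of BIRC5 at a mean log2 level of 7.64, with a log2 change of -0.18 (adjusted p 0.585). The other 3 probe sets of BIRC5 were called lower, with log2 changes from -1.43 to -1.33. Over the 49 genes the Spearman rho between mean log2 level and log2 change at 1.0 µM was 0.03 (a description over 49 genes measured on the same 9 arrays). Of the 103 probe sets, 44 carry a suffix for probes that may also bind related transcripts.

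**Figure D4:**
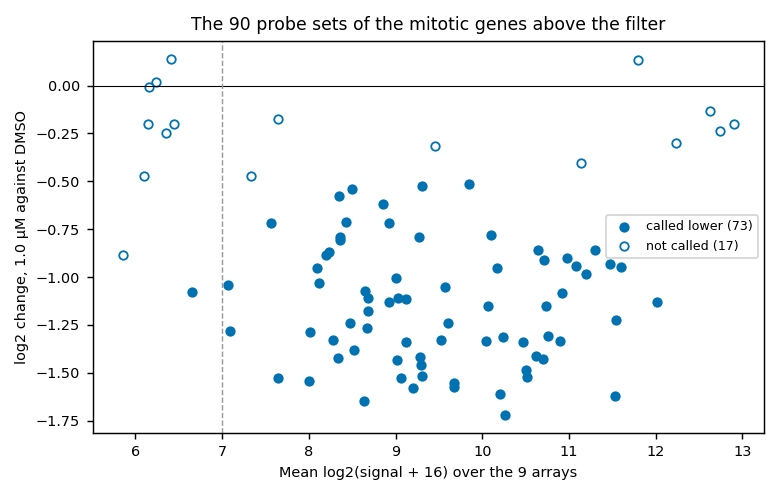
Mean log2(signal + 16) over the 9 arrays (horizontal) against log2 change at 1.0 µM against DMSO (vertical) for the 90 probe sets of the mitotic genes above the filter; filled points were called lower (73) and open points were not (17). The dashed line marks a mean level of 7, to the left of which 1 of 9 was called.

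A wider list set these genes beside other mitotic genes and genes of cell cycle control, among them genes that restrain proliferation. Of 116 further genes of mitosis and its control, 109 were tested; at 1.0 µM 42 fell, 3 rose and 64 were not called, with a median log2 change of -0.29, against 11.0% of all genes called lower and 12.3% higher. At 0.1 µM 33 fell and 2 rose, against 5.11% of all genes called lower and 6.89% higher. The list was drawn up with earlier results of these data known. Of 30 further kinetochore and centromere genes tested, 17 fell at each dose and none rose, with a median of -0.62 at 1.0 µM. They included CENPW (-1.12 ± 0.10, adjusted p 9.59e-06), SGO2, a protector of centromeric cohesion (-0.98 ± 0.10, adjusted p 2.76e-05), and CENPU (-1.12 ± 0.12, adjusted p 2.93e-05).

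Of 16 subunits and regulators of the anaphase-promoting complex, 2 fell at 1.0 µM, ANAPC7 (-0.26 ± 0.09, adjusted p 0.0441) and CDC23 (-0.34 ± 0.11, adjusted p 0.045), and none at 0.1 µM, a share at 1.0 µM close to the 11.0% of all genes called lower. The next by p was ANAPC10, which was not called (0.42 ± 0.15, adjusted p 0.0581). Of 17 cohesin genes and other condensin genes, 7 fell at 1.0 µM and 3 at 0.1 µM, against 11.0% and 5.11% of all genes. The lowest p values were those of CDCA5, the cohesin stabiliser sororin (-1.35 ± 0.15, adjusted p 5.93e-05), and of the condensin subunits NCAPG2 (-0.91 ± 0.13, adjusted p 3.54e-04) and NCAPD2 (-0.92 ± 0.15, adjusted p 9.28e-04). No test compared these lists with each other.

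Of 22 genes of mitotic entry and exit control, 13 fell at 1.0 µM and 11 at 0.1 µM, against the same 11.0% and 5.11% of all genes, and none rose. CDCA3 (-1.03 ± 0.09, adjusted p 8.63e-06), the kinase MELK (-0.89 ± 0.09, adjusted p 2.91e-05) and TRIP13, the ATPase that takes apart checkpoint complexes (-0.91 ± 0.10, adjusted p 3.14e-05), had the smallest p values. Among 10 genes that restrain proliferation, none fell and 3 rose at 1.0 µM, where 11.0% of all genes were called lower and 12.3% higher. These were the antiproliferative gene BTG1 (1.01 ± 0.10, adjusted p 2.13e-05), the stress gene GADD45A (0.49 ± 0.09, adjusted p 0.00172) and CDKN1A, which encodes the CDK inhibitor p21 (0.35 ± 0.08, adjusted p 0.00901). BTG1 and CDKN1A also rose at 0.1 µM, by log2 changes of 0.80 and 0.38, while GADD45A was not called there (0.04 ± 0.09, adjusted p 0.831).

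A list of 14 genes held subunits of the DREAM and MuvB complexes, which bind the CHR, and related factors such as E2F7 and E2F8. Of these, 3 fell at 1.0 µM, namely TFDP1, the partner of E2F factors (-0.56 ± 0.08, adjusted p 4.34e-04), the repressor E2F8 (-1.05 ± 0.21, adjusted p 0.00289) and MYBL1 (-0.34 ± 0.08, adjusted p 0.0103), and 2 fell at 0.1 µM, against 11.0% and 5.11% of all genes called lower. The median of the 14 was 0.07 at 1.0 µM and -0.04 at 0.1 µM. Between the doses 2 of the 109 genes were called, both higher at 1.0 µM: GADD45A (0.45 ± 0.09, adjusted p 0.0388) and the repressor E2F7 (0.69 ± 0.13, adjusted p 0.0367), against 0.817% of all genes called in either direction. Neither was called with median centring, without the trend, without the filter, with only the 6 arrays compared or with the replicate block. The same held without any 1 of the 0.1 µM arrays or of 1.0 µM replicates 1 and 3. E2F7 had mean signals of 392 under DMSO, 318 at 0.1 µM and 521 at 1.0 µM, and was not called at 1.0 µM against DMSO.

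**Figure D5:**
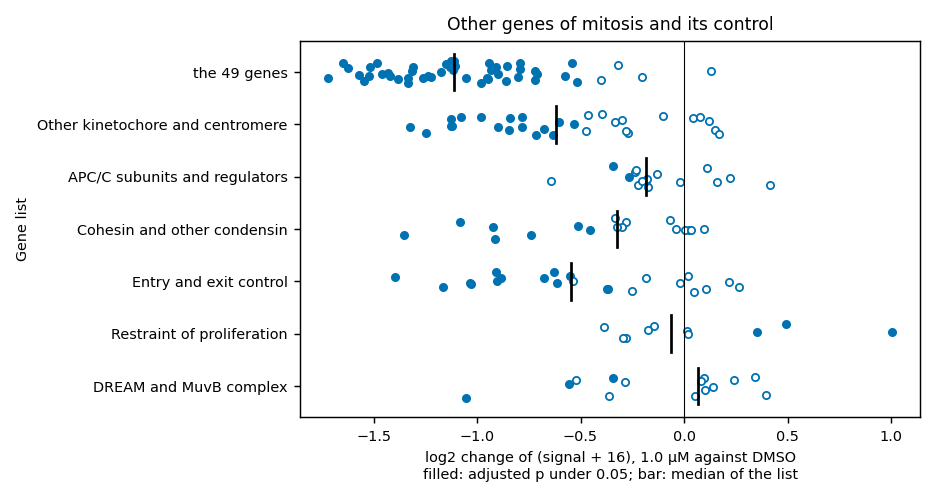
The log2 change at 1.0 µM against DMSO of the 49 mitotic genes (top row) and of 6 further lists of mitotic and cell cycle control genes (rows below), each point a gene, filled where called at an adjusted p under 0.05, with a bar at the median of the list. The medians run from -1.11 for the 49 genes to 0.07 for the DREAM and MuvB list.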

How the data were processed

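The authors deposited 1 hybridisation intensity per probe set and array on a linear scale, made with MAS5, per the submitters' processing notes; the settings of MAS5 are not given in the sources used here. The trimmed mean of every array was 499.9. Intensities were used as deposited and turned into log2(signal + 16). Of 54675 probe sets, 62 array controls were left out of the tests. Symbols came from the platform annotation and were updated by Entrez ID to RefSeq on GRCh38.p14 (matched for 41037 of the 41091 that carry 1 symbol), while 1801 with more than 1 symbol and 11721 without a listed symbol stayed out of the gene table. A filter at the 40th percentile of the mean log2 level, equal to a signal of 38.95, was applied, and the remaining probe set with the highest mean stood for each of 13948 genes. One model over the 9 arrays was fitted with limma 3.58.1 in R 4.3.3 (lmFit, eBayes with an intensity trend), with 3 contrasts and Benjamini-Hochberg adjustment over all genes, or over 32768 probe sets. The script was tested on simulated data. With arrays, the number of 3 per group limits the precision. The members, lists and tests were chosen with earlier results of these data known. Signals of every array are given for the 2 members of each role group with the smallest p at 1.0 µM and for every member not called at either dose; of the wider lists, the 3 genes with the smallest p at 1.0 µM are named, and others were named after their values were seen. In 1 label field replicate 1 of the 0.1 µM group is described as DMSO, and the DMSO concentration is given both as 0.05% and 0.5%. Another cell line of the design text, treated for 48 hours, was not analysed here.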

Additional observations from a re-analysis of the deposited data

How the results depend on the processing

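Of 1127 single-gene values of the 49 genes at 1.0 µM against DMSO, 1095 kept their direction and side of the threshold over 23 alternatives. Of the rest, 24 lost their call with the same sign (in 7 genes), 5 gained a call and 3 changed sign. At 0.1 µM the numbers were 1072, 47 (in 23 genes), 6 and 2, in the same order. Taking probe sets ending in _at first gave log2 changes at 1.0 µM of 0.018 for AURKA and 0.14 for BUB3, both from dim probe sets. AURKA, counted among the changes of sign, thereby lost its call as well (adjusted p 0.986). CDC25B, called under none of the settings that changed its sign, had -0.10 at 0.1 µM and -0.0019 at 1.0 µM in the fit to the 5 arrays of the dimmer spike set, and between -0.0016 and 0.25 at 0.1 µM when 1 array was left out.

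At 0.1 µM against DMSO, the fit to the dimmer spike set, with 1 array at that dose, called 19 of the 49 genes, 30 of their probe sets, 10 of the wider mitotic list and 324 of all genes (40, 63, 35 and 1674 in the fit reported), with a median of -0.82. Leaving out 1 array gave 23 to 39 genes of the wider list and 843 to 2003 of all genes. A fold of at least 1.5 as well left 924 of all genes at 0.1 µM and 1788 of 3240 at 1.0 µM.

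Between the doses, 1 of the 49 genes and 1 of their probe sets were called with the spike set as a block, and 0 to 1 genes when 1 array was left out. Of the wider list 2 genes were called in the fit reported, 5 with the spike set as a block, 1 with the mean of probe sets or a fold of at least 1.5, 0 to 2 without 1 array, and 0 with median centring, with no filter, in the fit lacking the trend, with only the 6 arrays compared, with the replicate block or in the dimmer spike set. Of all genes 114 were called in the fit reported, 256 with the spike set as a block, 172 after quantile normalization, 67 without the filter, 65 with only the 6 arrays compared, 51 with median centring (40 lower and 11 higher, against 60 and 54), 23 without the trend, 23 with the replicate block, 1 in the dimmer spike set and 11 to 186 without 1 array. Where fewer arrays or genes entered a fit, that is part of the alternative; otherwise the cause was not tested.

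Deviations of arrays with the same replicate number had correlations from -0.34 to 0.22 over 9 pairs, 1 of them over 0.1. Every replicate number has arrays in both spike sets, so these correlations cannot show whether the numbers pair the arrays. With the replicate number as a block, 43 of the 49 genes were called at 1.0 µM, without CDC25C (adjusted p 0.0547) and CENPK (0.0639). At 0.1 µM, 38 of the 49 were called, without PLK1 (adjusted p 0.055) and CENPN (0.0769). Of all genes, 2550 were called in either direction at 1.0 µM and 1137 at 0.1 µM with this block. In the fit reported the numbers were 45 and 40 of the 49 genes, and 3240 and 1674 of all genes.

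The array reads signal, not molecules, and dim probe sets limit what can be seen: 13 of the 103 probe sets lay below the filter.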

Other observations

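The promoter motifs were also counted around the wider mitotic list. Of 136 windows matched to 95 of those genes, 30.1% held a CHR core, 49.3% a CCAAT box and 14.7% both, which lies between the 49 genes (60.7%, 66.1% and 44.6%) and all windows (16.4%, 34.6% and 6.38%). No test compared these shares.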
